A study of Mus musculus with 21 samples.

Results

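The genes described here are 40 genes of DNA replication and cell division, taken by gene symbol from a list set for this work and read from RNA sequencing of mouse brain. All 40 were found among the 21872 gene symbols of both deposited count tables. They were divided by role into 15 genes of S phase and its preparation, 20 genes of G2 and mitosis, 2 D-type cyclins of G1 and 3 inhibitors of cyclin-dependent kinases (CDKs). The study gave mice water (control) or trientine (TETA), a drug that binds copper and that the labels tie to copper deficiency. The embryonic libraries, from day 18.5 (E18.5), numbered 6 control and 6 TETA, and the adult ones, from 7 weeks, 5 control and 4 TETA. All are labelled as mouse brain, and the labels name no strain, allele or other agent. Their protocol speaks of prefrontal cortex of male mice at 7 weeks, so region and sex at E18.5, and the route and length of TETA treatment, are not stated in the sources used here.

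A dividing cell prepares to copy its DNA in G1, copies it in S phase and separates the copies in mitosis. The MCM proteins, MCM2 to MCM7, form the ring-shaped helicase that opens DNA for copying, and PCNA is the clamp that holds the polymerase on the strand. CDK1 with its B-type cyclins drives entry into mitosis, where the Aurora kinases, BUB1 and the kinesins order the chromosomes on the spindle. Many S-phase genes are controlled by E2F proteins. Many mitotic genes are controlled by the DREAM complex, which represses them in cells that have left the cycle. Late in embryonic life the brain still holds dividing progenitors, whereas most cells of the adult brain no longer divide.

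Libraries held 14678265 to 24308555 counts each at E18.5, and 17838051 to 24035857 counts each at 7 weeks. Levels are counts scaled for library size (CPM) on 1 scale over all 21 libraries, given as mean ± SD. Fold changes are log2 values from edgeR's quasi-likelihood test with a standard error (SE), and a gene was called at a Benjamini-Hochberg adjusted p of 0.05 over all genes tested. All 40 genes passed the filter on low counts at each age. The labels do not say whether replicates are separate animals, so the p-values measure the spread between these libraries, which may be technical. Marker genes of neurons were abundant, with a summed level of 5186 to 5622 CPM at E18.5 and 7704 to 8213 CPM at 7 weeks. Markers of neural progenitors summed to 288 to 330 CPM at E18.5 and to 67.7 to 90.9 CPM at 7 weeks, and no marker gene was at 0 in a whole group. Markers of striatum summed to 1247 to 1535 CPM in controls and 579 to 731 CPM in TETA libraries at 7 weeks, a difference that is returned to beside the 7-week results.

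Promoters of 4 genes are shown because S-phase and mitotic genes are set against each other below, and the promoters of these classes are known for different short motifs, E2F motifs in the first and the cell cycle homology region in the second. The mitotic pair, Mki67 and Top2a, and the S-phase pair, Mcm7 and Mcm6, had the smallest p-values of their roles in the comparison of ages. Mki67 encodes the Ki-67 protein used to mark dividing cells, and Top2a encodes the topoisomerase that untangles DNA before chromosomes part. Each window covers 250 bases before to 50 bases after a RefSeq start (GRCm38.p6), on the strand of the gene. Capitals mark matches to TTTGAA (the core of the cell cycle homology region), TTTGGCGC or TTTCCCGC (E2F motifs) and CCAAT, searched on both strands. No printed matches overlap. Mki67 lies at chr7:135716330-135716629 (minus strand), Top2a at chr11:99024140-99024439 (minus), Mcm7 at chr5:138171834-138172133 (minus, the first of 2 RefSeq starts) and Mcm6 at chr1:128359656-128359955 (minus).
Mki67: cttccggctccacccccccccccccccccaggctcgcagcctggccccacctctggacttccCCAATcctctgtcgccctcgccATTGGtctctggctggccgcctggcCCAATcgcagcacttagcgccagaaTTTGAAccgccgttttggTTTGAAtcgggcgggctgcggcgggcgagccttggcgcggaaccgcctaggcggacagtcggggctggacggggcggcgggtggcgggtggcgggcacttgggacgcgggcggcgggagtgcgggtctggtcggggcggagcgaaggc
Top2a: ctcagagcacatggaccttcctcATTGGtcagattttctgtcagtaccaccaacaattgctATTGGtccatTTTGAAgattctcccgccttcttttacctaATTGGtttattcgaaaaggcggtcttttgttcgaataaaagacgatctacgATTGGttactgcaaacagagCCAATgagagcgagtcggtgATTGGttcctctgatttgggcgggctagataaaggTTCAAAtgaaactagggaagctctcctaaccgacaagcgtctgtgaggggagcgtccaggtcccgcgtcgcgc
Mcm7: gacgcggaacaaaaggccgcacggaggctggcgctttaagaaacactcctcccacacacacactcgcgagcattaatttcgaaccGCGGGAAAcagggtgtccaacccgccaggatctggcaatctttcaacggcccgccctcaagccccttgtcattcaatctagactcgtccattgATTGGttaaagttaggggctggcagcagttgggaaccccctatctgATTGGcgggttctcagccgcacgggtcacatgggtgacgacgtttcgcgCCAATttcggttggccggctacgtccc
Mcm6: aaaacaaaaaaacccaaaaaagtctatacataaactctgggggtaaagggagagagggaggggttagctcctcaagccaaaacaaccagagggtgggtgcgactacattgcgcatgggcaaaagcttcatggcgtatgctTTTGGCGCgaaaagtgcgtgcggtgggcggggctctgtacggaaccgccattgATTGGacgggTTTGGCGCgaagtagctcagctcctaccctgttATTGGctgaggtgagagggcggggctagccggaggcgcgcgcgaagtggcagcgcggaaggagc

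In these windows Mki67 and Top2a each hold TTTGAA at 2 places and neither E2F motif. Mcm6 holds TTTGGCGC at 2 places, Mcm7 holds TTTCCCGC once, and neither holds TTTGAA. The window at the second Mcm7 start, not printed, holds neither E2F motif and no TTTGAA. Promoters were found in the RefSeq table for 30 of the 40 genes. These were 16 mitotic genes (16 windows), 12 S-phase genes (13 windows) and 2 CDK inhibitors (3 windows). TTTGAA was in 11 of 16 mitotic windows (68.8%), in 1 of 13 S-phase windows (7.69%) and in 17.9% of all 32851 windows of this length. Either E2F motif was in 5 of 13 S-phase windows (38.5%), in 0 of 16 mitotic windows and in 1.56% of all windows. CCAAT was in 14 of 16 mitotic windows (87.5%), in 9 of 13 S-phase windows (69.2%) and in 37.4% of all windows. A match is a match of letters only and is no sign that a factor binds there.

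At E18.5 the first question was whether TETA changed the replication or division genes in embryonic brain. None of the 40 genes was called higher or lower in TETA, and 0 of the 13794 genes tested were called (0%). At an unadjusted p under 0.05 there were 0 of the 40, beside 660 of all genes (4.78%). DESeq2 called 10 genes in all and also 0 of the 40. No gene of the 40 had values that did not overlap between the groups, against 44 of all genes (0.319%). The median log2 fold change of the 40 genes was 0.005, beside -0.003 over all genes tested, and 23 fold changes were positive and 17 negative.

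No mitotic gene differed past the test at E18.5. Mki67 ran from 77.8 to 90.3 CPM in control libraries, with a median of 81.5 CPM. In TETA libraries it ran from 80.6 to 99.1 CPM, with a median of 84.3 CPM. The ranges overlapped, and the log2 fold change was 0.05 (SE 0.049). Top2a ran from 81.1 to 92.0 CPM in control (median 85.2 CPM) and from 75.4 to 93.1 CPM in TETA (median 86.6 CPM), with a fold change of -0.01 (SE 0.047). Over the 20 mitotic genes the median log2 fold change was -0.004, with 9 positive and 11 negative. The largest of them was Aurkb, the Aurora kinase of the chromosomal passenger complex, at 0.14 (SE 0.075), and the lowest was Kif11, a spindle kinesin, at -0.09 (SE 0.063). Kif11 was at -0.06 without control replicate 2-1 and also without TETA replicate 3-1.

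The S-phase genes showed no difference past the test either. Their median log2 fold change was 0.012, with 10 positive and 5 negative. Among the MCM helicase genes, 5 of 6 were positive with a median of 0.032. Mcm2 ran from 20.6 to 26.5 CPM in control (median 24.3 CPM) and from 24.7 to 27.2 CPM in TETA (median 25.7 CPM). The lower control libraries lay below every TETA library, but the groups overlapped and the fold change was 0.10 (SE 0.057), or 0.07 without control replicate 1-2. Over all 22 other settings the Mcm2 value ran from 0.05 to 0.13. Ccne2, a cyclin E that starts S phase with CDK2, had the widest fold change of the 40 at -0.20 (SE 0.107), with 5.59 to 7.76 CPM in control (median 6.91 CPM) and 4.98 to 7.21 CPM in TETA (median 5.54 CPM). Pcna had a fold change of 0.03 (SE 0.047) and Mcm7 one of -0.02 (SE 0.036).

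Of the G1 regulators at E18.5, Ccnd2, a D-type cyclin strongly expressed in cortical progenitors, ran from 243 to 274 CPM in control and from 237 to 288 CPM in TETA. Cdkn1a, which encodes the CDK inhibitor induced by p53, ran from 15.6 to 23.7 CPM in control (median 18.4 CPM) and from 17.9 to 24.6 CPM in TETA (median 20.7 CPM). Its fold change was 0.13 (SE 0.083) with overlapping groups. It was 0.07 without TETA replicate 2-2, 0.09 without control replicate 1-1 and 0.21 without control replicate 3-2. The smallest unadjusted p-values of the 40 genes were 0.0721 for Ccne2, 0.0850 for Aurkb, 0.0856 for Mcm2, 0.135 for Cdkn1a and 0.154 for Kif11 in edgeR's quasi-likelihood test, and each adjusted p was 0.996. Over the 40 genes the lowest bound of a 95% interval was -0.43 (Ccne2) and the highest 0.33 (Aurka) on the log2 scale.

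A further 74 genes of the same pathways, listed by function, were also examined at E18.5. Of these 0 were called, with a median log2 fold change of -0.017. Markers of neural progenitors, the dividing cells of the embryonic brain, summed to 299 to 313 CPM in control and to 288 to 330 CPM in TETA, and 0 of 8 were called. Endothelial markers summed to 114 to 129 CPM in control and 128 to 143 CPM in TETA, with 0 of 4 called and 3 of 4 at an unadjusted p under 0.05. In bulk tissue, fewer cells of a type and less RNA per cell cannot be told apart.

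**Figure D1:**
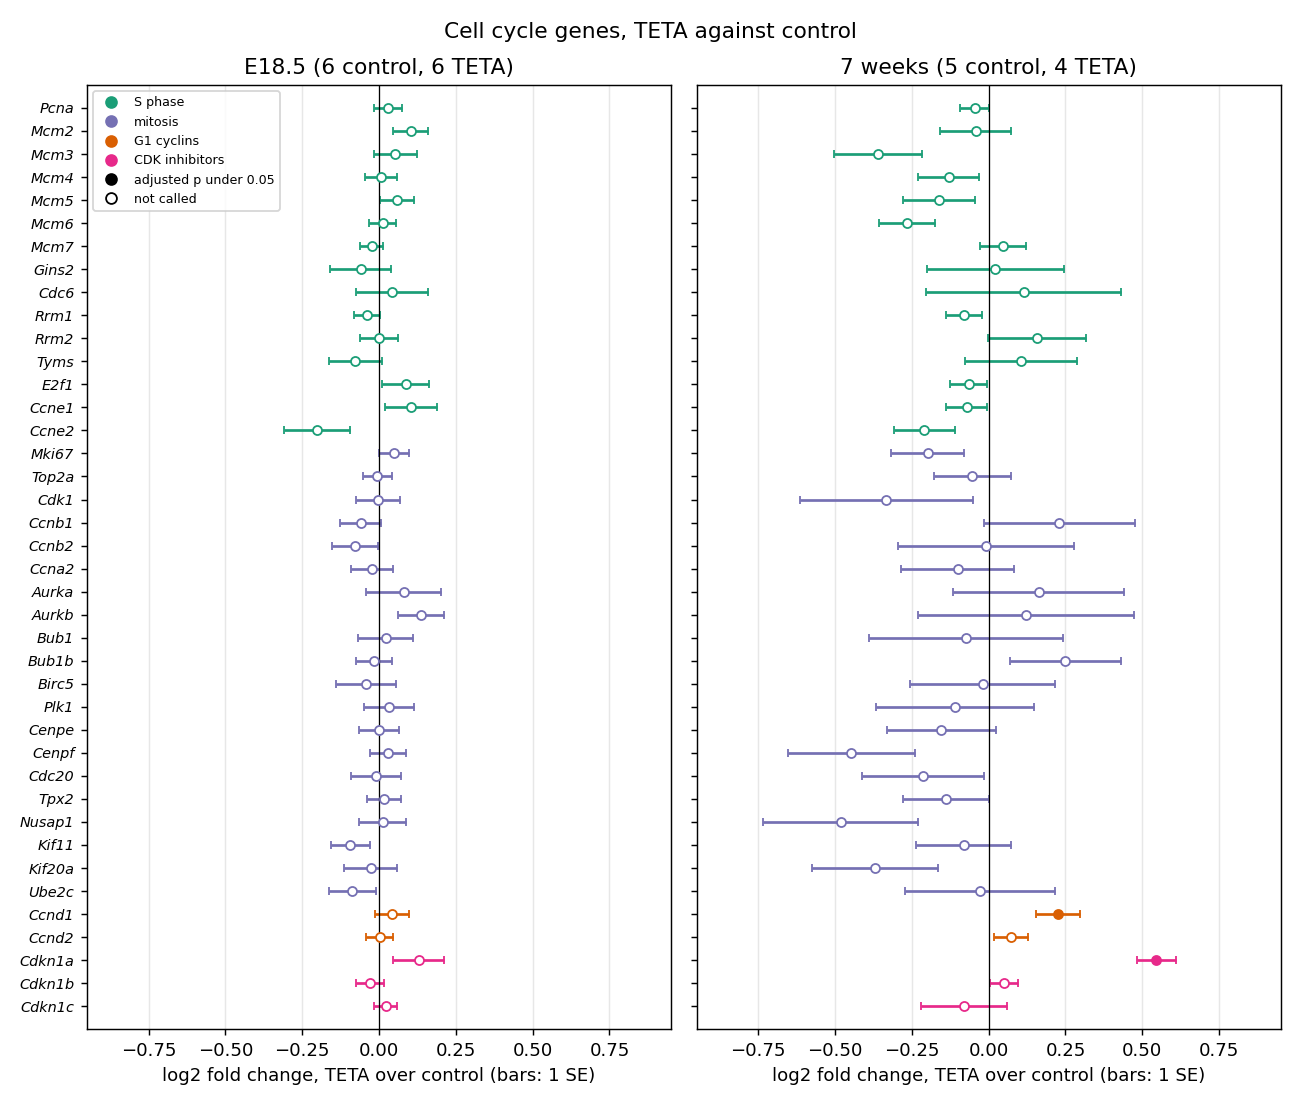
Log2 fold change of TETA over control for each of the 40 genes at E18.5 and at 7 weeks, grouped by role. Bars give the SE, which is narrower than a 95% interval. At E18.5 every gene lies between -0.20 and 0.14, and at 7 weeks Cdkn1a lies at 0.55, apart from the other genes.

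At 7 weeks TETA was compared with control in adult brain. Only 2 of the 40 genes were called, Cdkn1a and Ccnd1, and both were higher in TETA. Over all 14240 genes tested 9.96% were called, 5.67% higher and 4.28% lower, so 2 of 40 is no larger a share than that of all genes. Neither an S-phase gene nor a mitotic gene was called. At an unadjusted p under 0.05 there were 6 of the 40, beside 24% of all genes. Over the 40 genes 13 fold changes were positive and 27 negative, with a median log2 fold change of -0.068 beside 0.000 over all genes.

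Cdkn1a encodes a protein that binds cyclin-CDK complexes and PCNA and holds cells in G1. The gene lies at chr17:29090976-29100727 on the plus strand (GRCm38, GENCODE M21). The control libraries had 22.3, 21.0, 18.2, 17.8 and 20.4 CPM, and the TETA libraries had 27.9, 29.2, 29.0 and 29.9 CPM. Every TETA library lay above every control library. The groups did not overlap in 11.2% of all genes, 5.41% with TETA higher and 5.84% with TETA lower, and in 3 of the 40, Cdkn1a higher and Mcm6 and Kif20a lower. The means were 19.9 ± 1.90 CPM (SD, n = 5) in control and 29.0 ± 0.846 CPM (SD, n = 4) in TETA. The log2 fold change was 0.55 (SE 0.063, 95% interval 0.41 to 0.68, edgeR adjusted p = 1.04e-05). With a score of striatal markers as a covariate, described with the markers below, the call was lost (0.46, adjusted p = 0.997).

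Ccnd1 encodes cyclin D1, which with CDK4 or CDK6 carries cells through G1, and lies at chr7:144929931-144939925 on the minus strand. The control libraries had 52.5, 53.6, 49.0, 41.3 and 51.1 CPM, and the TETA libraries had 57.5, 49.3, 57.2 and 66.1 CPM. The groups overlapped, since 1 TETA library lay below 3 of the 5 controls. The log2 fold change was 0.23 (SE 0.071, edgeR adjusted p = 0.0474). The call was lost when control replicate 3 or 4 or TETA replicate 1, 3 or 4 was left out, with adjusted p-values from 0.0864 to 0.179. It was also lost with a filter at a mean of 50 counts (adjusted p = 0.0513) and with replicate number as a block (0.24, edgeR adjusted p = 0.112). With the striatal covariate the sign turned, to -0.075 (adjusted p = 0.997).

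Most helicase genes of S phase had negative fold changes at 7 weeks, and none was called. Mcm6 had 7.65, 7.63, 7.88, 9.01 and 8.46 CPM in control and 6.98, 6.36, 6.91 and 6.50 CPM in TETA, so every TETA library lay below every control. Its log2 fold change was -0.27 (SE 0.090, edgeR adjusted p = 0.0696). Mcm3 had 3.73, 3.55, 3.40, 3.83 and 2.90 CPM in control and 3.2, 2.39, 2.42 and 2.69 CPM in TETA, for a fold change of -0.36 (SE 0.143, adjusted p = 0.121). Here the lowest control lay among the TETA libraries. Mcm7, by contrast, stood at 12.2 ± 0.900 CPM (SD, n = 5) in control against 12.5 ± 0.799 CPM (SD, n = 4) in TETA, a fold change of 0.05 (SE 0.076). Of the 6 helicase genes 5 had negative fold changes, with a median of -0.145. Across the 15 S-phase genes the median was -0.065, with 5 positive and 10 negative.

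The mitotic genes were near the floor of these libraries at 7 weeks: 18 of the 20 had fewer than 100 counts in every control. Their log2 fold changes ran from -0.48 (Nusap1, which bundles spindle microtubules) to 0.25 (Bub1b, a spindle checkpoint kinase), with 4 positive and 16 negative and a median SE of 0.22. Cenpf, a kinetochore protein, had 1.66, 1.82, 1.70, 2.1 and 2.40 CPM in control and 1.40, 1.93, 0.942 and 1.47 CPM in TETA. Its groups overlapped, with a fold change of -0.45 (SE 0.206, edgeR adjusted p = 0.190), or -0.28 without TETA replicate 3. Kif20a, a kinesin of cytokinesis, had 1.2, 1.46, 1.08, 1.35 and 1.13 CPM in control and 1.04, 0.817, 0.987 and 0.965 CPM in TETA. Its groups did not overlap, yet the fold change of -0.37 (SE 0.205) had an adjusted p of 0.290. Mki67 had a fold change of -0.20 (SE 0.118) and Top2a one of -0.05 (SE 0.126). The SEs of single mitotic genes ran up to 0.352 at 7 weeks, so their intervals are wide.

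The other 2 CDK inhibitors did not follow Cdkn1a past the test at 7 weeks. Cdkn1b, the inhibitor that keeps resting cells in G1, stood at 50.6 ± 3.09 CPM (SD, n = 5) in control against 52.0 ± 1.22 CPM (SD, n = 4) in TETA, for a log2 fold change of 0.05 (SE 0.046). Cdkn1c, an imprinted inhibitor of embryonic growth, had a fold change of -0.08 (SE 0.140). Ccnd2 had one of 0.07 (SE 0.056). Of the 74 further pathway genes 65 could be tested, and 1 was called. This was Cdc25b, a phosphatase that activates CDK1, at 12.2 ± 0.332 CPM (SD, n = 5) in control against 14.2 ± 0.884 CPM (SD, n = 4) in TETA, a fold change of 0.24 (SE 0.068, edgeR adjusted p = 0.0276).

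Some cell type and region markers also differed with TETA at 7 weeks. All 12 striatal markers were lower, with summed levels that did not overlap (1247 to 1535 CPM in control and 579 to 731 CPM in TETA). With the striatal score as a covariate 6 genes were called in all and none of the 40. In that fit the SEs rose to 0.229 for Cdkn1a and 0.254 for Ccnd1. Mcm3 turned from -0.36 to 0.26 (SE 0.516) and Cenpf from -0.45 to 0.19 (SE 0.757), and Mcm6 stood at -0.38. The score separates the groups, so tissue composition and TETA cannot be told apart in these libraries. Of the progenitor markers, Hes5 (-0.44, SE 0.084) and Sox2 (-0.21, SE 0.067) were lower, 2 of 7 tested. Of the 7, 5 had negative fold changes and 2 positive ones, Nes (0.09, SE 0.088) and Pax6 (0.08, SE 0.096). The 8 markers summed to 68.4 to 90.9 CPM in control and 67.7 to 76.6 CPM in TETA, and their part in the levels of the 40 genes was not tested. Of the 5 oligodendrocyte precursor markers only Pdgfra was called (-0.19, SE 0.056), and the other 4 had positive fold changes up to 0.22 (Cspg4). Of the 4 endothelial markers only Flt1 was called (0.22, SE 0.052), with Pecam1 at 0.23, Cldn5 at -0.02 and Kdr at -0.23. The 4 astrocyte markers had negative fold changes, with Aldh1l1 called (-0.21, SE 0.057). Of the 5 neuronal markers Map2 was lower (-0.10, SE 0.026) and Snap25 higher (0.08, SE 0.025).

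**Figure D2:**
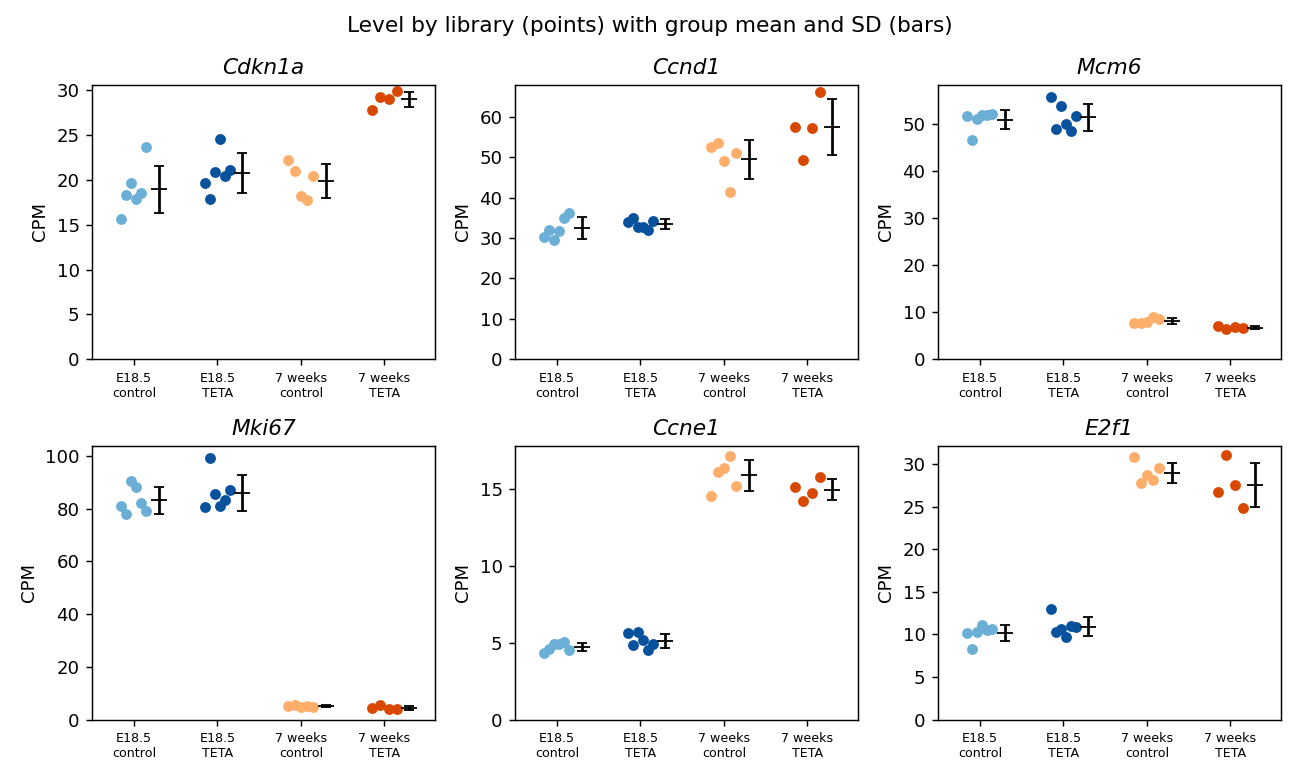
CPM of 6 genes in each library (points, linear axes from 0) with the mean and SD of each group (bars). Cdkn1a is above every 7-week control in the 4 TETA libraries at 7 weeks, Ccnd1 overlaps, and Mcm6 and Mki67 fall while Ccne1 and E2f1 rise between E18.5 and 7 weeks.

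The TETA effects at the 2 ages were compared as their difference over all 4 groups. Of 14660 genes 3.1% were called, 1.67% higher and 1.43% lower. Age cannot be told apart in this difference from the count table, brain region, sex or batch. At an unadjusted p under 0.05 there were 5 of the 40, beside 15.9% of all genes. Cdkn1a was the 1 gene of the 40 called, with an effect larger at 7 weeks by 0.41 (SE 0.114, 95% interval 0.17 to 0.64, edgeR adjusted p = 0.0447). The call was close to the threshold: it was absent in 18 of 27 other settings. Over all 27 the difference ran from 0.33 to 0.47 and the adjusted p from 0.0129 to 0.0914. With the E18.5 counts as deposited the difference was 0.41 with an adjusted p of 0.0636. All 12 striatal markers were also called lower in this difference, with a median of -1.07. Hes5, a progenitor marker (-0.46, SE 0.120), and Kdr, an endothelial marker (-0.49, SE 0.114), were called lower as well. The part of these markers in the Cdkn1a value was not tested in that fit. The next genes were Mcm6 at -0.29 (adjusted p = 0.0674), Mcm3 at -0.42 (0.131), Cenpf at -0.50 (0.177) and Mki67 at -0.26 (0.271), none of them called. With 1 library left out, Cenpf ran from -0.65 to -0.33 and Mki67 from -0.36 to -0.21. When TETA replicate 1-2 of E18.5 was left out, Mcm6 was called at -0.30 (adjusted p = 0.0489) and Cdkn1a was not (0.36, adjusted p = 0.0566).

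The levels of the 40 genes between ages were compared in control libraries only. Age cannot be told apart here from the count table, brain region, sex or batch. Of the 40 genes 35 were lower and 3 higher at 7 weeks, while 89.5% of 14375 genes tested were called, 45.5% lower and 44% higher. At an unadjusted p under 0.05 there were 38 of the 40 (89.8% of all genes), and 38 had values that did not overlap between ages (80.2% of all genes). A call is thus common, and size is more informative: 34 of the 40 fell below a log2 fold change of -1 (17.8% of all genes) and 21 below -3 (2.53% of all genes). The median over the 40 was -3.06, against -0.02 over all genes.

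The mitotic genes fell together. All 20 were lower at 7 weeks, with no overlap between ages in any, from -2.59 (Aurka, the Aurora kinase of spindle poles) to -4.44 (Cdk1), and 19 of the 20 were below -3. Their median log2 fold change was -3.64. Mki67 ran from 77.8 to 90.3 CPM at E18.5, against 5.39, 5.41, 4.70, 5.29 and 5.02 CPM at 7 weeks. Its means were 83.1 ± 5.03 CPM (SD, n = 6) and 5.16 ± 0.301 CPM (SD, n = 5), a fold change of -4.00 (SE 0.062, edgeR adjusted p = 3.43e-25). Top2a fell by 4.25 on the log2 scale (SE 0.069, adjusted p = 8.79e-25), from 86.1 ± 4.46 to 4.49 ± 0.637 CPM. Cdk1, the kinase of mitotic entry, stood at 17.2 ± 1.16 CPM at E18.5 and at 0.691, 0.976, 0.907, 0.755 and 0.588 CPM in the 7-week controls. The checkpoint kinase gene Bub1 fell by 4.34 (SE 0.161), to 0.455 ± 0.0760 CPM.

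The other mitotic genes are given by function, each with its log2 fold change. Of the mitotic cyclins, Ccnb1 stood at -3.91 (SE 0.112), Ccnb2 at -3.36 (SE 0.153) and Ccna2 at -3.91 (SE 0.094). Aurkb and Birc5, partners in the chromosomal passenger complex, stood at -3.98 (SE 0.174) and -3.17 (SE 0.134), and Plk1, a kinase of mitotic entry and exit, stood at -3.12 (SE 0.152). At the kinetochore and checkpoint, Cenpf stood at -4.11 (SE 0.083), Cenpe at -3.11 (SE 0.087) and Bub1b at -3.03 (SE 0.098). Cdc20 and Ube2c, which act with the anaphase-promoting complex, stood at -3.29 (SE 0.133) and -3.83 (SE 0.124). Of the spindle genes, Nusap1 stood at -3.97 (SE 0.125), Kif11 at -3.45 (SE 0.080), Kif20a at -3.24 (SE 0.117) and Tpx2 at -3.09 (SE 0.081), and Aurka stood at -2.59 (SE 0.158).

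The S-phase genes moved in both directions. Of the 15, 12 were lower, 2 higher and 1 not called, with a median of -2.05, and only Rrm2 was below -3. Rrm2 encodes the ribonucleotide reductase subunit that is made in S phase, and it stood at 37.0 ± 3.85 CPM at E18.5 and 2.96 ± 0.503 CPM at 7 weeks, a fold change of -3.64 (SE 0.096). Its partner Rrm1, the large subunit, fell by 1.88 (SE 0.046), from 70.4 ± 2.43 to 19.0 ± 0.691 CPM. The 6 helicase genes were all lower, from -1.31 (Mcm4) to -2.66 (Mcm7), with a median of -2.14. Mcm7 ran from 72.7 to 81.6 CPM at E18.5, against 12.6, 11.2, 11.9, 11.8 and 13.5 CPM at 7 weeks. Mcm6 fell by 2.65 (SE 0.058), from 51.0 ± 2.11 to 8.13 ± 0.597 CPM. Tyms, which makes thymidylate for DNA, had a log2 fold change of -2.94 (SE 0.121), Cdc6, which loads the helicase, one of -2.46 (SE 0.188), and Gins2, a subunit of the active helicase, one of -2.25 (SE 0.139). Of the other helicase genes Mcm2 stood at -2.05 (SE 0.086), Mcm3 at -2.23 (SE 0.099), Mcm4 at -1.31 (SE 0.075) and Mcm5 at -1.47 (SE 0.079).

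Pcna, which also serves DNA repair, fell least of the S-phase genes that were lower. It ran from 66.8 to 83.1 CPM at E18.5 and had 41.9, 40.2, 40.5, 38.3 and 40.5 CPM at 7 weeks. All 7-week libraries lay below all E18.5 libraries, with a log2 fold change of -0.87 (SE 0.049). E2f1 and Ccne1 went the other way. E2f1, a transcription factor of S-phase genes, ran from 8.31 to 11.1 CPM at E18.5 and had 30.7, 27.7, 28.7, 28.1 and 29.5 CPM at 7 weeks. It was higher by 1.5 (SE 0.062, edgeR adjusted p = 6.40e-17). Ccne1, the other cyclin E gene, ran from 4.34 to 5.07 CPM at E18.5 and had 14.5, 16.1, 16.4, 17.2 and 15.2 CPM at 7 weeks, higher by 1.74 (SE 0.074, adjusted p = 1.11e-16). Ccne2 was not called at 0.10 (SE 0.089, 95% interval -0.08 to 0.29), and its sign turned to -0.05 without TMM scaling.

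The D-type cyclins split between ages. Ccnd2 fell by 1.27 (SE 0.053), from 262 ± 11.8 CPM (SD, n = 6) to 108 ± 11.5 CPM (SD, n = 5). Ccnd1 rose by 0.61 (SE 0.064, edgeR adjusted p = 3.81e-09), from 32.5 ± 2.64 to 49.5 ± 4.87 CPM, with no overlap. The 3 CDK inhibitors differed from each other as well. Cdkn1c fell by 3.63 (SE 0.077), from 69.6 ± 2.99 to 5.62 ± 0.987 CPM, a size like that of the mitotic genes. Cdkn1b fell by 1.36 (SE 0.045), from 130 ± 6.46 to 50.6 ± 3.09 CPM. Cdkn1a was not called at 0.08 (SE 0.081, 95% interval -0.09 to 0.25), and it turned to -0.07 without TMM scaling, a setting that moved the median of all genes from -0.02 to -0.17.

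**Figure D3:**
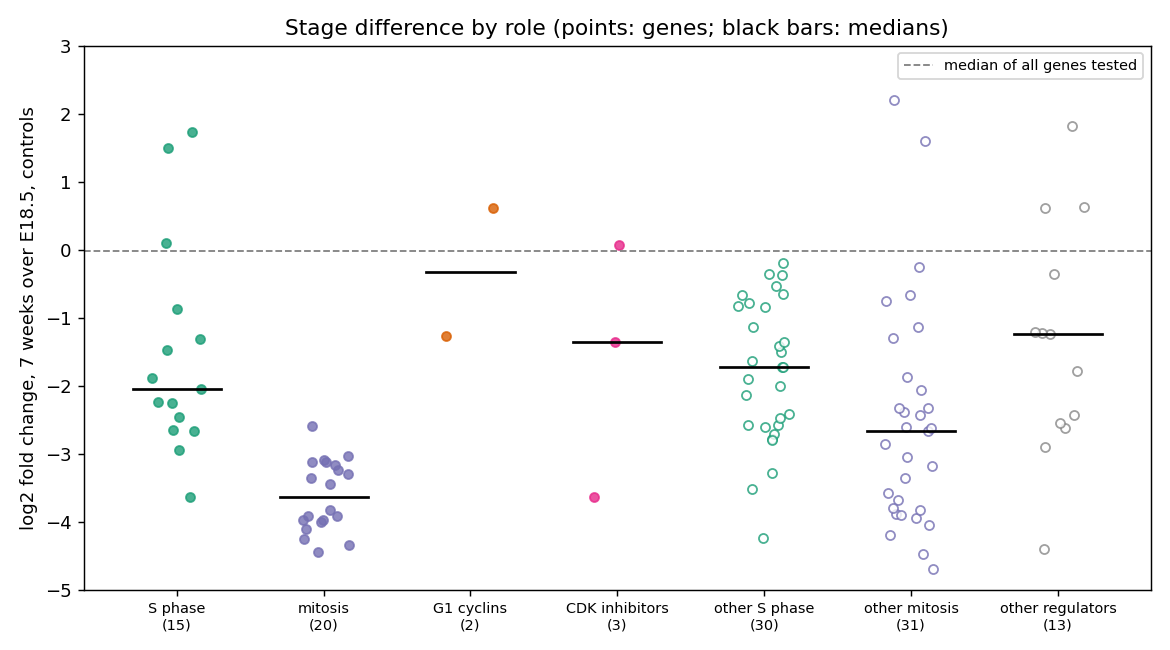
Log2 fold change of 7-week over E18.5 control libraries for each gene (points), by role, with role medians (black bars) for the 40 genes (filled) and 74 further pathway genes (open). The dashed line is the median of all genes tested. The filled points of the 20 mitotic genes all lie below -2.5, while those of the 15 S-phase genes spread from -3.64 to 1.74.

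Further genes of the pathway were compared between ages in the same way. Of the 74, 69 were lower and 5 higher at 7 weeks, with medians of -1.72 for 30 S-phase genes, -2.66 for 31 mitotic genes and -1.23 for 13 regulators. Those with the smallest p-values were Cdk4, the kinase partner of the D-type cyclins (-2.62, SE 0.043), Pbk, a mitotic kinase (-3.90, SE 0.108), and Prc1, which bundles microtubules of the central spindle (-3.68, SE 0.102). The 5 that were higher were Anln, Pttg1, E2f3, Cdkn2d and Wee1. Progenitor markers were lower at 7 weeks in 7 of 8 cases. Markers of oligodendrocyte precursors, which can divide in adult brain, were higher in 4 of 5 cases and lower in 0. Sox10 (2.14) and Gpr17 (1.94) rose most, Pdgfra and Cspg4 rose by 0.37 each, and Olig2 (0.05) was not called. Calls were common between ages, with 44% of all genes higher and 45.5% lower. Microglial and astrocyte markers were higher in 5 of 5 and 4 of 4 cases, and blood markers lower in 5 of 5. Neuronal markers were higher in 3 of 5 cases and lower in 2, and endothelial markers higher in 1 of 4 and lower in 2. The part of cell composition in the levels of the 40 genes was not tested.

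Per library, the balance of S-phase and mitotic genes differed between ages, and within an age control and TETA differed by less than the spread between libraries. The mean log2(CPM + 1) of the 15 S-phase genes minus that of the 20 mitotic genes was 0.10 ± 0.039 in E18.5 control and 0.12 ± 0.068 in E18.5 TETA libraries (SD, n = 6 and 6). At 7 weeks it was 1.68 ± 0.073 (SD, n = 5) in control against 1.66 ± 0.112 (SD, n = 4) in TETA. The S-phase mean of the 7-week TETA libraries (2.91 to 2.98) lay just below that of the controls (2.98 to 3.1), while the mitotic means overlapped (1.15 to 1.38 and 1.26 to 1.40). As summed CPM, the S-phase genes were 162 to 171 CPM in control and 150 to 161 CPM in TETA. These sums over genes chosen with results known carry no test.

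**Figure D4:**
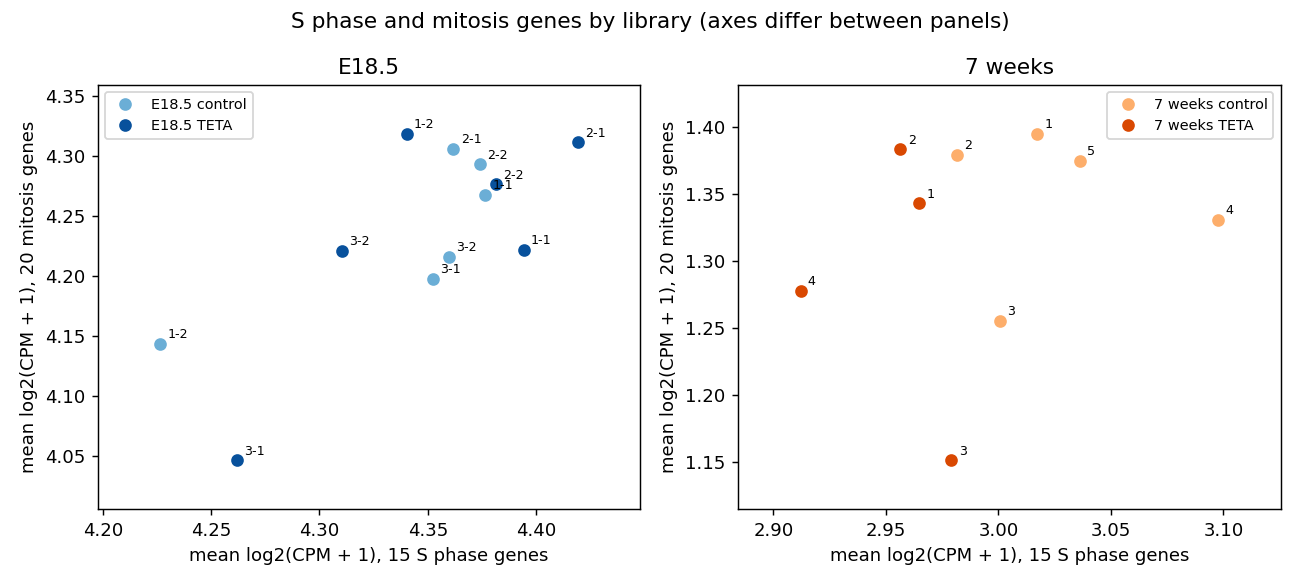
Mean log2(CPM + 1) of the 15 S-phase genes against that of the 20 mitotic genes, 1 point per library. The E18.5 libraries lie together near 4.3 on both axes with control and TETA mixed, and the 7-week libraries lie near 3.0 for S phase and 1.3 for mitosis.

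Levels were also scaled by exon length, which sets genes only roughly against each other. On this scale Cdkn1c led the 40 in E18.5 control brain at 34.1 CPM per kilobase. Pcna followed at 30.7, Cdkn1b at 28.6 and Ccnd2 at 27.9 CPM per kilobase. Cdc6 was the lowest at 0.653 CPM per kilobase. At 7 weeks Pcna led at 16.8, followed by Ccnd2 at 11.5, Cdkn1b at 11.1, Ccnd1 at 10.5 and E2f1 at 9.18 CPM per kilobase. Bub1 was the lowest at 0.105 CPM per kilobase. No mitotic gene was among those 7-week leaders, which are a clamp, 2 cyclins, an inhibitor and a transcription factor of the G1 to S-phase side of the cycle. Of the 40 genes 23 were under 5 CPM in every 7-week library. The lengths come from GENCODE M21, since the authors' annotation is not given in the sources used here. Each length counts the bases in any annotated exon of the gene, so the order depends on which transcripts are annotated.

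**Figure D5:**
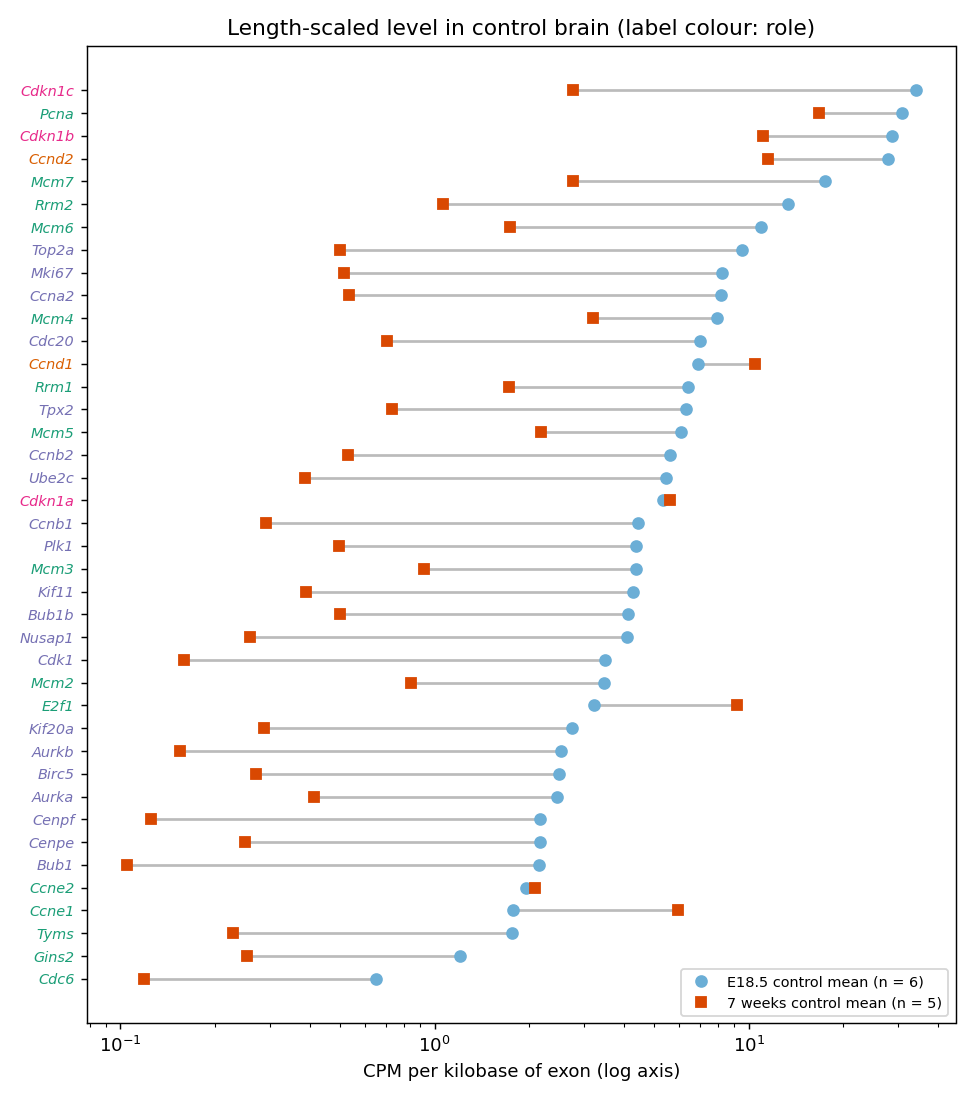
Mean CPM per kilobase of exon (log axis) of each of the 40 genes in control libraries at E18.5 (circles, n = 6) and 7 weeks (squares, n = 5), ordered by the E18.5 value. Label colours give the role: green S phase, purple mitosis, orange D-type cyclins and pink CDK inhibitors. Ccnd1, E2f1 and Ccne1 lie to the right of their E18.5 value at 7 weeks, and every mitotic gene lies to the left.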

How the data were processed

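The values deposited by the authors are raw counts by gene symbol, in 1 table for each age, per the file headers, from stranded poly(A) libraries (TruSeq) per the labels' protocols. The submitters' processing notes name STAR 2.7.1a, featureCounts 2.0.1 and mm10. The annotation and the handling of strand, overlapping genes and near-identical copies are not given in the sources used here. At E18.5, 1940 genes at 0 in control replicate 1-1 had counts that were multiples of 11 in the other libraries. They were divided by 11, and none is among the 40.

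Genes were filtered with filterByExpr (minimum count 10), scaled by TMM and tested with edgeR 4.0.16 in R 4.3.3 (quasi-likelihood, Benjamini-Hochberg, threshold 0.05), each comparison over its own groups. The fit was checked on simulated counts. The SE is the fold change divided by the t quantile that matches the p-value. Totals were 14678265 to 24308555 counts, and the biological coefficient of variation, the spread between libraries beyond counting error, was 5.85% at E18.5 and 4.55% at 7 weeks. No pair of replicates agreed within counting noise.

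Alternatives were DESeq2 1.42.0, voom quality weights in limma 3.58.1, other filters, no TMM, leaving out libraries, a replicate block and covariates. Groups and replicate numbers came from the labels. The genes and lists were chosen with earlier results of these data known. The genes named were all that passed the threshold or, where fewer than 5 of the 40 passed, the 5 with the smallest p, with other members to describe their roles; between ages, where 38 passed, most are given by fold change and SE alone. Of other pathway genes up to 3 with the smallest p were given with values, and the 5 that were higher at 7 weeks were named after their values were seen. Promoters on 1 chromosome were not used here.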

Additional observations from a re-analysis of the deposited data

Results flagged for a closer look

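Some libraries stood apart from the rest of their group. In 168 tests of single genes and role means, 12 had a highest or lowest library farther from the others than Dixon's 95% value allows. Chance gives about 1 in 20, or 8.4.

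At E18.5 control replicate 1-2 was low for several S-phase measures. Mcm6 was 46.7 CPM there against 51.2 to 52.2 CPM in the other controls, E2f1 was 8.31 CPM against 10.2 to 11.1 CPM, and the mean log2(CPM + 1) of the S-phase genes was 4.23 against 4.35 to 4.38. Mcm5 was 27.3 CPM in control replicate 3-2 against 23.2 to 24.4 CPM.

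Among TETA libraries at E18.5, Mki67 was 99.1 CPM in replicate 1-2 against 80.6 to 87.1 CPM. In replicate 3-1 Kif20a was 8.64 CPM against 11.5 to 12.9 CPM, and the mean log2(CPM + 1) of the mitotic genes was 4.05 against 4.22 to 4.32. Mcm3 was 19.0 CPM in replicate 2-1 against 16.1 to 16.9 CPM, Cdc6 was 2.7 CPM in replicate 3-2 against 3.56 to 3.84 CPM, and Bub1b was 15.2 CPM in replicate 2-2 against 17.5 to 18.5 CPM. With any 1 of these libraries left out, the number of the 40 genes called at E18.5 remained 0.

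At 7 weeks Aurka was 1.62 CPM in control replicate 4 against 0.799 to 1.02 CPM, and Tpx2 was 4.34 CPM in control replicate 5 against 3.02 to 3.32 CPM.

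The TETA effect on Cdkn1a passed the test of a difference between ages: it was larger at 7 weeks by 0.41 on the log2 scale (adjusted p = 0.0447 by edgeR), with every TETA library above every control at 7 weeks and overlapping groups at E18.5. The call was absent in 18 of 27 other settings, and all 12 striatal markers were called lower in the same difference, with a median of -1.07. Age cannot be told apart in this difference from the count table, brain region, sex or batch.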

How the results depend on the processing

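At E18.5 the number of the 40 genes called was 0 in all 22 other settings, among them DESeq2, no filter, no TMM, summed libraries and, added after seeing the data, a fit without both libraries numbered 1-2 and a fit with the level of Y-linked genes as a covariate. Between ages it was 37 to 39 in all 16, against 38. At 7 weeks the number called was 2. It was 1 with a mean of at least 50 counts, 1 with the replicate block and 0 with the striatal covariate, and leaving out each library gave 1 to 2. With the striatal covariate Ccnd1 turned to -0.075, Mcm3 to 0.26 and Cenpf to 0.19 (each adjusted p = 0.997, edgeR). For the difference between ages the number was 1. It was 0 with the E18.5 counts as deposited and 0 without both E18.5 libraries numbered 1-2 (added after seeing the data), and leaving out each library gave 0 to 1. The cause of these changes was not tested.

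The replicate numbers gave no clear pairing of the libraries: same-numbered deviations correlated at -0.28 to 0.28 at E18.5 and -0.07 to -0.03 at 7 weeks. Libraries with different numbers were not compared in this way, so a pairing is not excluded. The replicate block left 0 of the 40 called at E18.5. At 7 weeks it called Cdkn1a but not Ccnd1 (0.24, adjusted p = 0.112, edgeR) and 1072 genes in all, against 1418. The comparison of ages shares no replicate numbers.

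For 53 values of genes named by the rule, settings other than leaving out 1 library gave 295 values with the same sign and side of the threshold, 5 that lost the call and kept their sign, and 3 of the other sign, among them Ccnd1, which also lost its call. For the same genes, leaving out a library kept 606 values, ended 21 calls and added 1. Over all 40 genes and the 4 comparisons, 10 fold changes, 0 of them called, changed sign without TMM or with DESeq2. Counts under 100 limit most mitotic genes at 7 weeks.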
